A study of Mus musculus with 3 samples.

Results

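Ikzf1 and Ikzf3 encode Ikaros and Aiolos, and 3 histone mark maps of mouse pro-B cells were read at these 2 genes. The members were chosen by position in mm9, as 2 windows on chromosome 11. The Ikzf1 window ran from 11575001 to 11680000 (105 kb) and the Ikzf3 window from 98315001 to 98415000 (100 kb). Of 18461 genomic regions enriched for H3K4me3, 6 lay in or reached into these windows, 2 at Ikzf1 and 4 at Ikzf3. Chromatin immunoprecipitation with sequencing (ChIP-seq) had been done with 3 antibodies, 1 library each. They recognise histone H3 symmetrically dimethylated at arginine 2 (H3R2me2s), H3 carrying that mark together with trimethylated lysine 4 (H3R2me2sK4me3, here the combined mark), and trimethylated lysine 4 (H3K4me3). Both antibodies against arginine 2 were custom reagents of the submitters, while the H3K4me3 antibody was bought from Abcam. All 3 libraries came from the same kind of cell, RAG2-/- pro-B cells transformed with Abelson virus, kept in culture and labelled with the strain C57BL/7. Without RAG2, a partner in the enzyme that cuts antigen receptor genes for joining, such cells cannot rearrange these genes, and the Abelson oncogene keeps them dividing. No input library was used here, no second culture stands behind any value, and the cell type was not checked against marker genes. All intervals below are 95% intervals for counting error within a library.

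Ikaros family proteins are zinc finger transcription factors that bind DNA near the start of the protein and pair with each other through further fingers at its end. Ikaros is needed for the earliest steps towards lymphocytes and for pro-B cell development, while Aiolos is best known from later B cell stages and plasma cells. H3K4me3 is the classic mark of active promoters. H3R2me2s can be bound by WDR5, a subunit shared by the enzyme complexes that methylate lysine 4.

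The RefSeq promoter table for GRCm38.p6 held 2 starts for Ikzf1 and was searched for 2 genes, of which 1 had an entry; Ikzf3 is named only. The sequences are shown because the 2 starts differ in base composition while, as described below, the files held 2 strong peaks in the Ikzf1 promoter region. Each runs 5′ to 3′ from 250 bases before to 50 bases after the start on the forward strand, and capitals mark CpG dinucleotides. The first lies at chr11:11685675-11685974 and the second at chr11:11689927-11690226 in that build.
Ikzf1 start 1: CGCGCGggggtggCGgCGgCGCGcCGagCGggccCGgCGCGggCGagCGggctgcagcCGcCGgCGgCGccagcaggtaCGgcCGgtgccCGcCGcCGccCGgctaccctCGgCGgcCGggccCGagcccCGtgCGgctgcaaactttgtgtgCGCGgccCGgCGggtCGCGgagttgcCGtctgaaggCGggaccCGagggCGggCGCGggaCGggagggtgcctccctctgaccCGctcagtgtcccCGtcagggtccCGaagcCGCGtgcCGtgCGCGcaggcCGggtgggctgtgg
Ikzf1 start 2: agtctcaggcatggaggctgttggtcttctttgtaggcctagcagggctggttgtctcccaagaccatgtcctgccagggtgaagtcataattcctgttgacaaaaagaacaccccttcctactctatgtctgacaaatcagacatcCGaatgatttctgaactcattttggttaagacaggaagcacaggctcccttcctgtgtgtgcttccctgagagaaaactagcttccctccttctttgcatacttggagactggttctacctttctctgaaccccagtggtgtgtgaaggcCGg
The first start had 52 CpG dinucleotides in 300 bases and a G+C content of 81.3%, more CpG than 99.4% of the 32851 promoters in the table. The second had 2 CpG and 49.0% G+C, and 14.1% of promoters had fewer CpG. The GC box GGGCGG, searched on both strands, occurred 2 times at the first start and 0 times at the second, and 35.7% of all promoters held it. GGAAG, a form of the core recognised by ETS factors, occurred 0 and 5 times, with 71.4% of all promoters holding it. TATAAA (in 13.6% of promoters), TGGGAA (25.6%) and the E-box CANNTG (72.3%) were not found in either printed Ikzf1 sequence. TGGGAA holds GGGAA, the core that Ikaros proteins prefer, but GGGAA alone was not searched for. Its reverse complement TTCCC can be read in the sequence of the second start, so a lack of TGGGAA is not a lack of that core.

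Reads were counted in 1 kb bins and are given as reads, as counts scaled to equal library size (CPM), or as multiples of background, which was the mean of bins far from any enriched bin. In the order H3R2me2s, combined mark, H3K4me3, background was 2.35, 1.86 and 2.98 reads per bin, from libraries of 6923765, 7128852 and 13898471 reads. A bin was called enriched at 15, 16 and 25 reads or more, which is 6.37, 8.60 and 8.39 times background. Genome-wide these limits called 1.23%, 1.45% and 2.45% of bins. In the Ikzf1 window 11, 10 and 12 of 105 bins were enriched. In the Ikzf3 window 9, 11 and 21 of 100 bins were enriched in the same order. All 3 marks were called together in 8 bins of each window, against 1.05% of bins in the genome. H3K4me3 alone was called in 1 bin at Ikzf1 and in 9 at Ikzf3 (0.919% of bins in the genome).

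**Figure D1:**
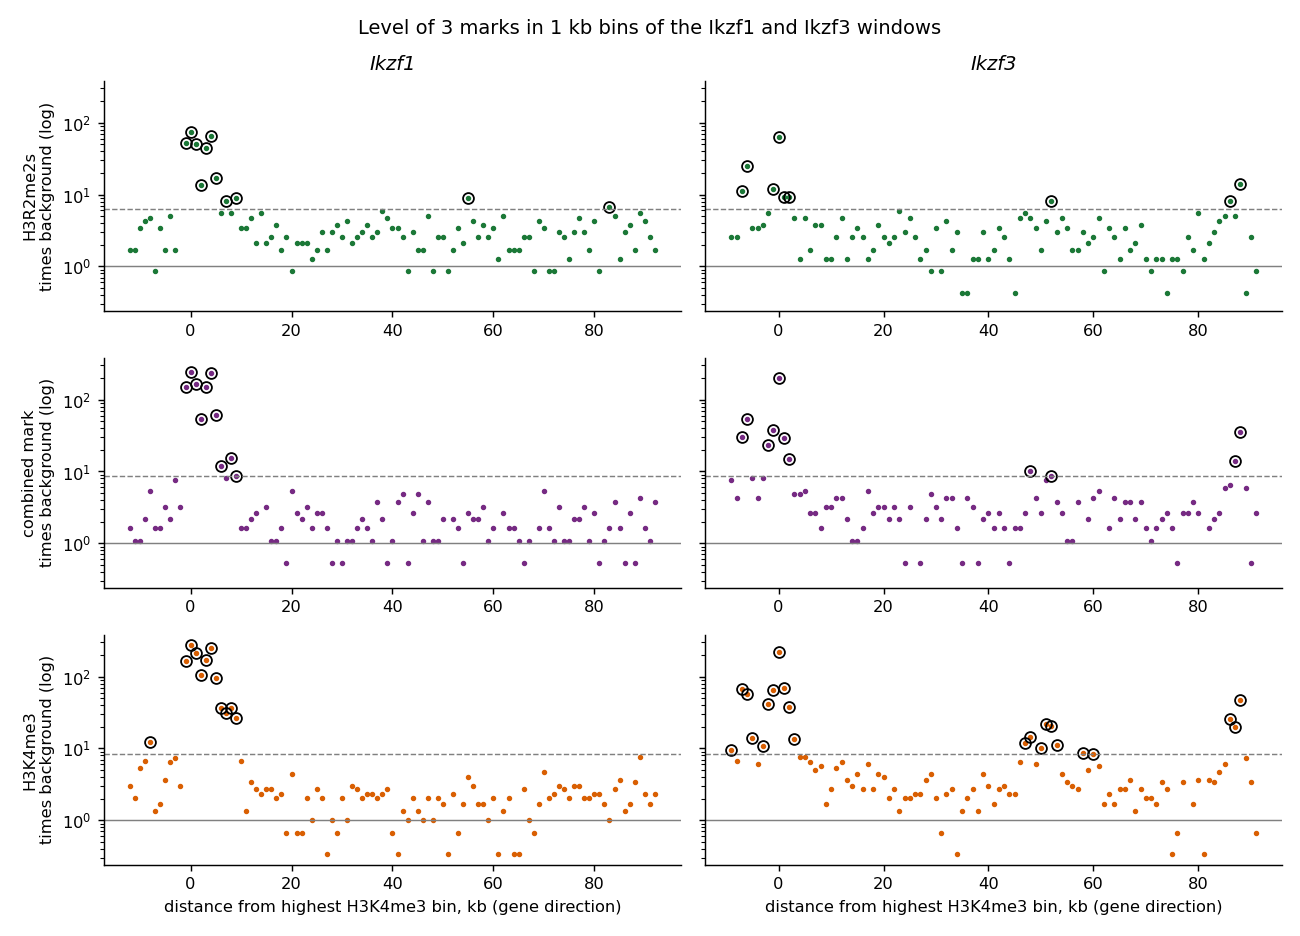
Each point is a 1 kb bin, placed by its distance in kb from the highest H3K4me3 bin in the direction of the gene, against its level in multiples of background (log axis). Columns are genes, rows are marks; circles mark enriched bins, the dashed line is the calling limit, the solid line is background, and bins with no read are left out. Away from the promoter, Ikzf1 has enriched bins for H3R2me2s at 55 and 83 kb (8.92 and 6.80 times background) and for H3K4me3 at -8 kb (12.4 times). Ikzf3 has enriched bins about 47 to 60 kb and 86 to 88 kb from the summit.

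The promoter region of each gene was taken as the H3K4me3 region with most reads in its window. For Ikzf1 it was 11586001 to 11597000, 11 kb wide, and it was enriched for H3K4me3 in 11 bins, for the combined mark in 10 and for H3R2me2s in 9. It held 808 H3R2me2s reads, 2049 of the combined mark and 4186 of H3K4me3. Only 4, 3 and 4 of the 18461 H3K4me3 regions held more reads of the respective mark. Its mean level was 128 times background for H3K4me3 (124 to 132), 100 times for the combined mark (95.8 to 105) and 31.2 times for H3R2me2s (29.1 to 33.4). Of the 409 H3K4me3 regions 10 kb or wider (2.22% of all regions), 2 had a higher mean level in each of the 3 libraries. So the Ikzf1 promoter combined width with density in all 3 maps.

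For Ikzf3 the promoter region was 98403001 to 98416000, 13 kb wide, of which the last 1 kb lay outside the window. It was enriched for H3K4me3 in 11 bins, for the combined mark in 7 and for H3R2me2s in 6. It held 366, 801 and 1854 reads of H3R2me2s, the combined mark and H3K4me3. Mean levels were 12.0 (10.8 to 13.2), 33.1 (30.8 to 35.5) and 47.9 (45.7 to 50.1) times background, where the medians over the 409 broad regions were 10.3, 27.4 and 41.2. The 13 kb depended on joining bins across gaps of 1 kb. When only adjacent bins were joined, the region with most reads was 7 kb (98403001 to 98410000), followed by blocks of 3 kb and 1 kb. With bin edges moved by 500 bp the region was 8 kb, and at 8 times the mean it was 5 kb. The Ikzf1 region stayed within 1.5 times its 11 kb under these settings.

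With bin edges at whole kb, the highest single bins of the 2 genes were much closer to each other than the whole regions. At Ikzf1, bin 11587001 to 11588000 held 172 H3R2me2s reads, 456 of the combined mark and 810 of H3K4me3, or 73.1, 245 and 272 times background. At Ikzf3, bin 98406001 to 98407000 held 149, 377 and 662 reads, or 63.3, 203 and 222 times background. Ikzf1 over Ikzf3 was therefore 1.22 for H3K4me3 (1.10 to 1.36) and 1.21 for the combined mark (1.05 to 1.39). It was 1.15 for H3R2me2s (0.922 to 1.45). That last interval included equal counts. Summed over the promoter regions, Ikzf1 had 2.21 (1.95 to 2.50), 2.56 (2.36 to 2.78) and 2.26 (2.14 to 2.39) times the reads of Ikzf3. The Ikzf3 height, and with it the closeness of the highest bins, depended on where the bin edges fell. With edges moved by 500 bp the highest Ikzf3 bin was at 36.5, 117 and 160 times background, while that of Ikzf1 was at 89.2, 265 and 281 times. The highest bins of the 2 genes were then much further apart for all 3 marks.

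In 100 bp bins the Ikzf1 region rose at an abrupt edge on its upstream side. From 11586001 to 11586400 the 4 small bins held at most 3 reads of any mark, and from 11586501 the bin held 18 H3R2me2s reads, 49 of the combined mark and 92 of H3K4me3. All 3 marks then had their highest small bin at the same place, 11586801 to 11586900, with 56, 93 and 146 reads. Counted once per position and strand these were 44, 80 and 93 reads. A second peak filled 11590001 to 11592000. Its highest small bin was at 11591701 to 11591800 for the combined mark (64 reads) and H3K4me3 (113 reads), and at 11591101 to 11591200 for H3R2me2s (26 reads).

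Averaged over their core bins, the 2 Ikzf1 peaks were alike in level and balance. Bins with at least 50% of the highest H3K4me3 bin (core bins) formed runs of 3 kb (11586001 to 11589000) and 2 kb (11590001 to 11592000). The first run stood at 217 times background for H3K4me3 (207 to 226), at 187 in the combined-mark library (176 to 199) and at 58.5 in that of H3R2me2s (53.0 to 64.4). The second stood at 212 (201 to 224), 190 (176 to 204) and 54.6 (48.1 to 61.7) times background, so the intervals overlapped for each mark. Their highest small bins overlapped less: for H3R2me2s they stood at 238 (180 to 309) and 110 (72.1 to 162) times background, with intervals apart. Each was picked as the highest of its run, which the intervals do not allow for. Counted once per position and strand, these 2 small bins held 44 and 22 H3R2me2s reads. The combined mark over H3K4me3 was 1.05 (0.977 to 1.14) in the first and 1.09 (0.992 to 1.20) in the second as a CPM ratio. The first bins at 50% of each peak's height lay 3700 bp apart for H3K4me3 and the combined mark and 3900 bp apart for H3R2me2s (mm9). The starts printed above lie 4252 bp apart in GRCm38.p6. No mm9 annotation was used here, so neither start was placed on the peaks, and which peak lies beside which start was not determined.

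At Ikzf3 a single core bin, 98406001 to 98407000, held 36.5% of the H3K4me3 reads of the enriched bins, against a median of 58.4% in core bins over the broad regions. The 5 core bins of Ikzf1 held 76.4%. The highest small bins of Ikzf3 were within 400 bp of each other, at 98406101 for H3K4me3 (103 reads), 98406401 for H3R2me2s (30 reads) and 98406501 for the combined mark (53 reads). Of the H3K4me3 reads, 50% lay in 16 small bins of 130 at Ikzf3 and in 23 of 110 at Ikzf1; for H3R2me2s these were 11 and 17, and for the combined mark 10 and 19. The Ikzf1 counts cover both of its peaks. Counted by small bins with at least 50% of the highest one, Ikzf3 had 8 for H3K4me3 and 10 for the combined mark against 20 and 14 at Ikzf1, but 6 for H3R2me2s against 3.

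Stretches with almost no reads bordered the Ikzf3 peak. At 98407001 to 98407300, upstream of it, the 3 small bins held 1 H3R2me2s read, 4 of the combined mark and 3 of H3K4me3. At 98405801 to 98406000, downstream of it, the 2 small bins held 0, 2 and 7 reads. Reads rose again beyond both stretches.

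**Figure D2:**
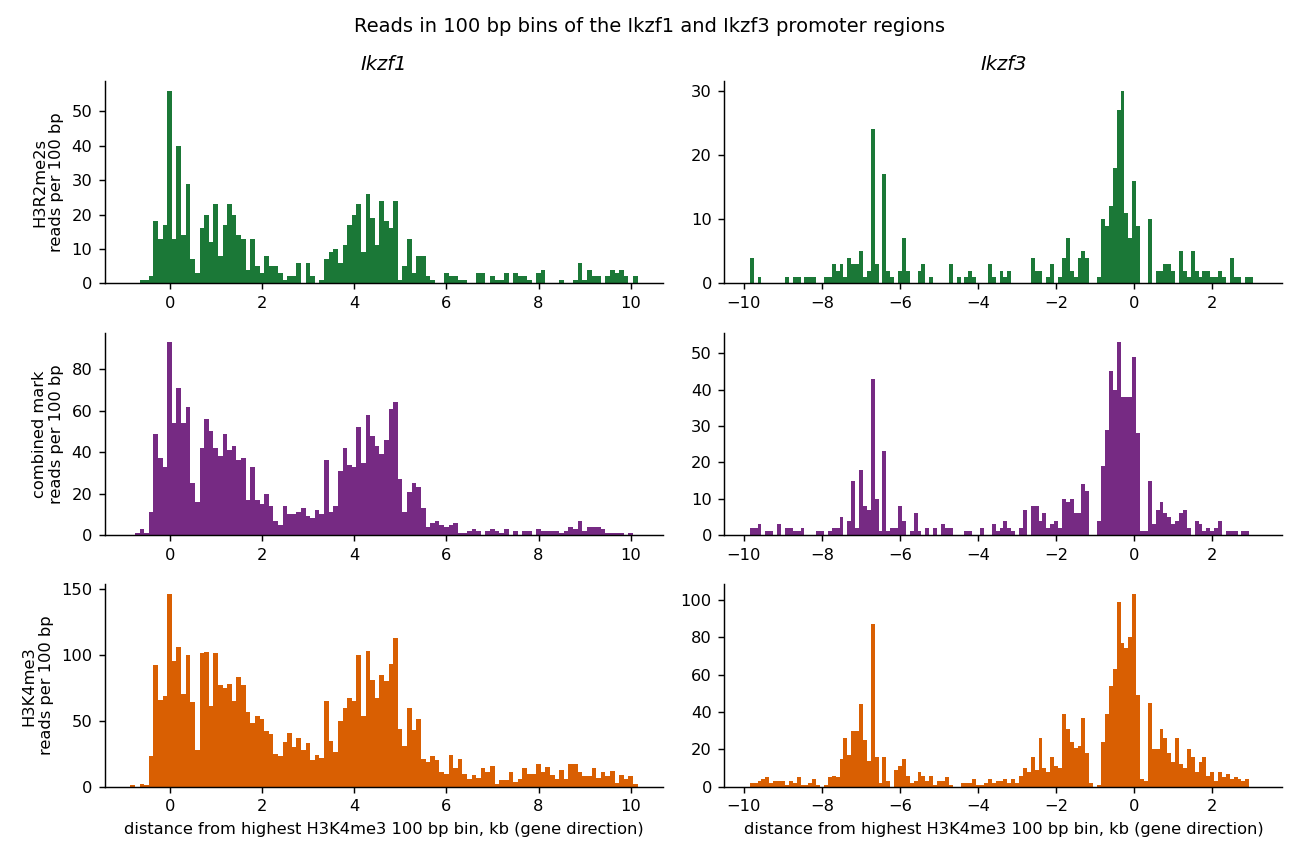
Bars are reads in 100 bp bins of the promoter regions, placed by distance in kb from the highest H3K4me3 small bin in the direction of the gene; columns are genes, rows are marks, and each panel has its own axis from 0. Ikzf1 shows 2 peaks, of which the first has the higher H3R2me2s summit (56 against 26 reads), and Ikzf3 shows 1 peak near 0 and narrow spikes about 6.4 and 6.7 kb upstream.

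A second peak in the Ikzf3 promoter region stood upstream of the highest H3K4me3 bin, in the direction of the gene. The block 98411001 to 98414000 held 92 H3R2me2s reads, 173 of the combined mark and 417 of H3K4me3, or 13.0, 31.0 and 46.7 times background. Much of it came from few small bins: 98412801 to 98412900 held 24, 43 and 87 reads and 98412501 to 98412600 held 17, 23 and 16. In the latter, H3R2me2s had more reads than H3K4me3 although its library was the smaller one; counted once per position the numbers were 15, 22 and 12. By gene order in RefSeq the protein-coding neighbours of Ikzf3 are Grb7 on its far side and Zpbp2, which encodes a zona pellucida binding protein of sperm, on its upstream side. Whether this block belongs to Ikzf3 or to Zpbp2 was not determined.

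Balance is given as the ratio of CPM between libraries. Antibodies were not calibrated against each other, so a ratio does not say what part of the histone tails carries a mark, and it is read only between places. Over the whole promoter region H3R2me2s over H3K4me3 was 0.387 at Ikzf1 (0.359 to 0.418) and 0.396 at Ikzf3 (0.353 to 0.444). Both were near the median of 0.397 over 409 broad regions (quartiles 0.368 and 0.429). The combined mark over H3K4me3 was 0.954 at Ikzf1 (0.905 to 1.01) and 0.842 at Ikzf3 (0.774 to 0.916), where the broad regions had a median of 0.806 (0.722 to 0.888). Ikzf1 was above 90.2% of them and Ikzf3 above 61.9%. H3R2me2s over the combined mark was 0.406 at Ikzf1 (0.374 to 0.441) and 0.470 at Ikzf3 (0.415 to 0.533). At Ikzf1 that value was lower than in 396 of 409 broad regions. The broad regions were not matched for level in these comparisons, and only 2 of them had a higher mean H3K4me3 level than Ikzf1. By 1 kb bin, the combined mark over H3K4me3 was higher where H3K4me3 was, as given below. The place of Ikzf1 among regions of like level was not determined.

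Repeated reads touched this balance. Of the reads in the Ikzf1 region, 20.2% of H3K4me3, 9.65% of H3R2me2s and 6.25% of the combined mark repeated a position and strand, against 6.20%, 5.22% and 2.64% in the whole libraries. At Ikzf3 these were 13.7%, 10.9% and 4.87%. How many are PCR copies and how many are separate fragments with equal ends was not tested. With each position and strand counted once, the Ikzf1 ratios to H3K4me3 were 0.434 for H3R2me2s and 1.08 for the combined mark.

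Within both promoter regions the pooled balance differed between the core bins and the other enriched bins. In the core bins of Ikzf1 the combined mark over H3K4me3 was 1.07 (1.01 to 1.13), and in its other enriched bins (shoulder bins) it was 0.585 (0.512 to 0.667). At Ikzf3 the same ratio was 1.11 (0.976 to 1.26) in the core bin and 0.689 (0.614 to 0.772) in the shoulder. H3R2me2s over H3K4me3 was 0.420 (0.386 to 0.457) in the Ikzf1 core and 0.281 (0.233 to 0.336) in its shoulder, and 0.452 (0.376 to 0.540) and 0.353 (0.303 to 0.410) at Ikzf3. Intervals of core and shoulder did not overlap except for H3R2me2s at Ikzf3. Shoulder bins were not only outer flanks and were not uniform. From 11593001 to 11597000 H3R2me2s over H3K4me3 was 0.237, 0.410, 0.237 and 0.527 by bin, against 0.207 between the Ikzf1 peaks. The Ikzf3 shoulder included the upstream block. Its bin 98412001 to 98413000 had 1.14 (0.882 to 1.46) for the combined mark and 0.673 (0.491 to 0.911) for H3R2me2s. Both values were above those of the Ikzf3 core bin, but the intervals overlapped for both ratios. Less the level of unenriched bins downstream in the same window, the Ikzf1 values for core and shoulder were 1.07 and 0.564 for the combined mark and 0.404 and 0.211 for H3R2me2s.

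Set beside the broad regions without matching for level, core divided by shoulder ranked higher for H3R2me2s than for the combined mark. Core divided by shoulder was 1.50 for H3R2me2s at Ikzf1, where 407 broad regions with shoulder bins had a median of 0.954 and 12 had a higher value. It was 1.28 at Ikzf3, with 57 higher. For the combined mark it was 1.82 at Ikzf1 and 1.61 at Ikzf3, against a median of 1.44, with 65 and 133 regions higher. A higher ratio of the combined mark in core bins than in shoulder bins was thus common to broad regions, while for H3R2me2s the median region had nearly equal ratios. Background was not subtracted from these quotients, and shoulder bins were not matched by level. H3R2me2s over H3K4me3 had medians of 0.540 for bins like one of 28 H3K4me3 reads and 0.343 for bins like one of 124. How far shoulder level enters the quotients was not tested.

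**Figure D3:**
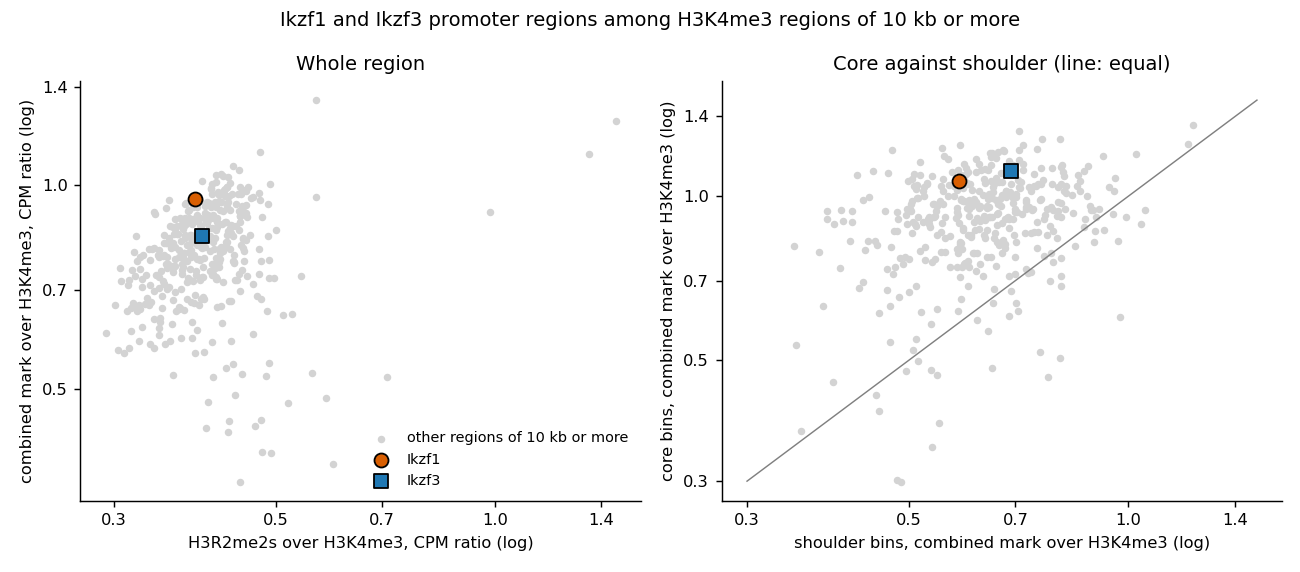
Each point is an H3K4me3 region 10 kb wide or more; the Ikzf1 and Ikzf3 promoter regions are marked. The left panel sets H3R2me2s over H3K4me3 against the combined mark over H3K4me3 for whole regions, and the right panel sets the combined mark over H3K4me3 in shoulder bins against core bins (CPM ratios, log axes). Both genes lie inside the cloud, and in the right panel both lie above the line of equal values, at 0.585 and 1.07 for Ikzf1 and 0.689 and 1.11 for Ikzf3.

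Single bins showed where the ratio was low. Because the combined-mark ratio is higher where H3K4me3 is (medians of 0.544 for bins like one of 40 reads and 1.07 for bins like one of 810), each bin was set beside all bins with an H3K4me3 count within 10% of its own. Between the 2 Ikzf1 peaks, bin 11589001 to 11590000 held 32 H3R2me2s reads, 101 of the combined mark and 311 of H3K4me3. The ratios to H3K4me3 were 0.207 (0.139 to 0.298) and 0.633 (0.501 to 0.795), and the medians of 2133 bins of like H3K4me3 count were 0.389 and 0.938. Of those bins, 2.06% had less H3R2me2s and 4.31% less of the combined mark. Next to the Ikzf3 peak on its gene side, bin 98405001 to 98406000 held 22, 54 and 206 reads. Its ratios were 0.214 (0.131 to 0.333) and 0.511 (0.371 to 0.693), lower than in all but 3.81% and 4.12% of 2837 like bins. These bins were picked out after their values were seen.

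At the peaks, 4 of the 5 Ikzf1 core bins and the Ikzf3 core bin lay within the quartiles of like bins for both ratios. Over the 5 Ikzf1 bins the combined mark over H3K4me3 ran from 0.953 to 1.12 (medians of like bins 0.997 to 1.07) and H3R2me2s over H3K4me3 from 0.382 to 0.491 (0.404 to 0.422). The first core bin, 11586001 to 11587000, was above the upper quartile for both, at 1.11 against 1.10 and at 0.491 against 0.457. The 4 last bins of the Ikzf1 region (11593001 to 11597000) held 80 to 110 H3K4me3 reads each, and their combined-mark ratios were 0.390, 0.314, 0.514 and 0.390, each below the lower quartile of like bins. Over all 11 enriched bins per gene, 6 at Ikzf1 and 3 at Ikzf3 lay below that lower quartile for the combined mark, and 4 and 4 for H3R2me2s; 1 in 4 bins of the genome does so by construction. Above the upper quartile were 1 at Ikzf1 and 4 at Ikzf3 for the combined mark, and 2 and 1 for H3R2me2s. The Ikzf3 bin above it for H3R2me2s was 98412001 to 98413000, in the upstream block, with a ratio to H3K4me3 of 0.673 (0.491 to 0.911), above 98.8% of 3133 like bins.

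**Figure D4:**
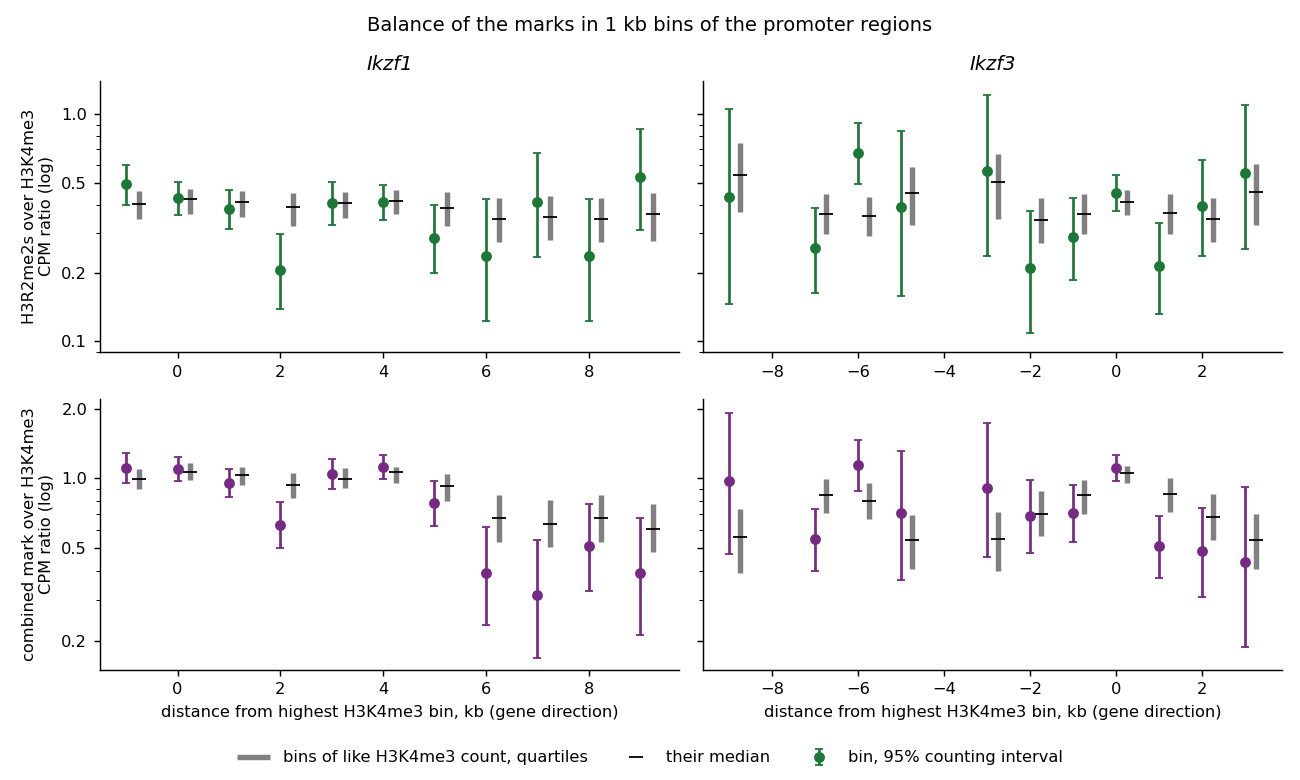
Points are CPM ratios to H3K4me3 (log axis) in each H3K4me3-enriched bin of the promoter regions, with 95% counting intervals, against distance in kb from the highest H3K4me3 bin in the direction of the gene. Grey bars beside them are the quartiles, and black ticks the median, of all bins with an H3K4me3 count within 10%; the low points at 2 kb for Ikzf1 and at 1 kb for Ikzf3 lie under the bars for both marks.

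Over the 110 small bins of the Ikzf1 region, reads of the combined mark and H3K4me3 correlated with r = 0.961, H3R2me2s and the combined mark with r = 0.900, and H3R2me2s and H3K4me3 with r = 0.883. Over the 130 small bins of Ikzf3 these were 0.927, 0.874 and 0.832. Small bins are neighbours and share sequence and mappability, so these values describe the loci only.

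Upstream of the Ikzf1 promoter, 1 bin, 11579001 to 11580000, was enriched for H3K4me3 with 37 reads (12.4 times background). It had 11 H3R2me2s reads and 10 of the combined mark, under both limits. Downstream of the promoter region, H3K4me3 and the combined mark were called in 0 of 83 bins of the Ikzf1 window. H3R2me2s was called in 2 of them without the other marks, a combination found in 0.0854% of bins genome-wide. Bin 11642001 to 11643000 held 21 H3R2me2s reads at 20 distinct positions, with 5 reads of the combined mark and 12 of H3K4me3. Bin 11670001 to 11671000 held 16 reads at 16 positions, with 3 and 3. The limit was 15 reads, so the second was just over it, and at 8 times the mean 0 bins were called there.

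Inside the Ikzf3 window 3 further H3K4me3 regions were called. The strongest, 98318001 to 98321000, lay near the far end of the window, towards Grb7, with 64 H3R2me2s reads, 105 of the combined mark and 277 of H3K4me3 (9.06, 18.8 and 31.0 times background). Whether it lies in Ikzf3 or beyond its end was not determined. In mid-window, 98353001 to 98360000 was 7 kb wide but weak, with 72, 74 and 286 reads (4.37, 5.68 and 13.7 times background). Beside it, 98346001 to 98349000 held 18, 12 and 66 reads and was called for H3K4me3 only.

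Relative to H3R2me2s, the combined mark was lower in the mid-window region than at the Ikzf3 promoter, by intervals that did not overlap. H3R2me2s over the combined mark was 1.00 (0.714 to 1.40) at 98353001 to 98360000, against 0.437 (0.376 to 0.507) in the 7 kb block at the promoter. At 98318001 to 98321000 it was 0.628 (0.453 to 0.864), which overlapped the promoter block. Less the level of unenriched bins downstream in the same window, it was 0.834 in the mid-window region and 0.392 in the promoter block. The intervals above do not allow for that level. At 98346001 to 98349000, H3R2me2s and the combined mark stood at 2.55 and 2.15 times background, near the 2.37 and 2.55 of unenriched bins downstream of the Ikzf3 promoter region, so ratios there describe that level. The combined mark over H3K4me3 was 0.504 (0.385 to 0.653) in the mid-window region and 0.739 (0.585 to 0.928) in the far one. Regions of equal width with an H3K4me3 count within 20% had medians of 0.498 (27 regions) and 0.753 (850) for that ratio. The mid-window region lay within the quartiles of such regions for all 3 ratios. The far region did so for the combined mark over H3K4me3 only: its H3R2me2s over H3K4me3 of 0.464 was above 86.4% of them, and its H3R2me2s over the combined mark was above 82.0%.

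Outside called bins, the windows downstream of both promoter regions stood above background, with a different order of the 3 marks; where the genes end in them was not determined. In the 81 unenriched Ikzf1 bins downstream of the promoter region, H3R2me2s was at 2.72 times background (2.49 to 2.96), the combined mark at 1.88 (1.67 to 2.12) and H3K4me3 at 2.03 (1.85 to 2.21). In the 77 such bins of Ikzf3 the levels were 2.37 (2.15 to 2.60), 2.55 (2.30 to 2.83) and 3.17 (2.94 to 3.40). Per bin, Ikzf1 had 0.640 of the H3K4me3 reads of Ikzf3 (0.570 to 0.719) and 0.738 of the combined mark (0.629 to 0.864), but 1.15 of the H3R2me2s reads (1.01 to 1.31). H3R2me2s over H3K4me3 was 2.13 (1.88 to 2.41) in the Ikzf1 bins and 1.19 (1.05 to 1.34) in the Ikzf3 bins, and the intervals did not overlap.

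The height of these levels was set beside 32208 stretches of 40 kb across the genome with no bin called for H3K4me3 or the combined mark. Ikzf1 gave 2 such stretches (11597001 to 11637000 and 11637001 to 11677000) and Ikzf3 gave 1 (98363001 to 98403000). H3R2me2s was at 2.82 (2.50 to 3.18) and 2.86 (2.53 to 3.22) times background in the Ikzf1 stretches and at 2.43 (2.13 to 2.77) in the Ikzf3 stretch, where the median over the genome was 0.849. It was above 99.9%, 99.9% and 99.6% of all stretches. H3K4me3 was at 1.94, 2.13 and 3.32 times background in the same order, above 97.7%, 98.8% and 99.99% of stretches. The combined mark was at 1.99, 1.77 and 2.66. H3R2me2s over H3K4me3 was 2.31 (1.93 to 2.77), 2.13 (1.78 to 2.53) and 1.16 (0.985 to 1.37), where the median over the genome was 1.58. That ratio was above 91.9%, 86.3% and 12.1% of stretches.

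Stretches beside broad promoters were themselves high, so they make a closer comparison. Over 254 stretches adjoining other H3K4me3 regions of 10 kb or more, the 3 medians were 1.73 (H3R2me2s), 1.75 (combined mark) and 1.86 (H3K4me3). Against these, both Ikzf1 stretches were above 95.7% for H3R2me2s but above only 59.1% and 72.8% for H3K4me3. The Ikzf3 stretch was above 89.8% for H3R2me2s and above 98.4% for H3K4me3. H3R2me2s over the combined mark was 1.85 (1.51 to 2.28) and 2.10 (1.70 to 2.60) in Ikzf1, higher than in 96.9% and 98.8% of the adjoining stretches, and 1.19 (0.980 to 1.45) in Ikzf3, higher than in 25.2%. Stretches on chromosome 11 alone had medians of 0.998, 0.954 and 0.865 for H3R2me2s, the combined mark and H3K4me3.

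**Figure D5:**
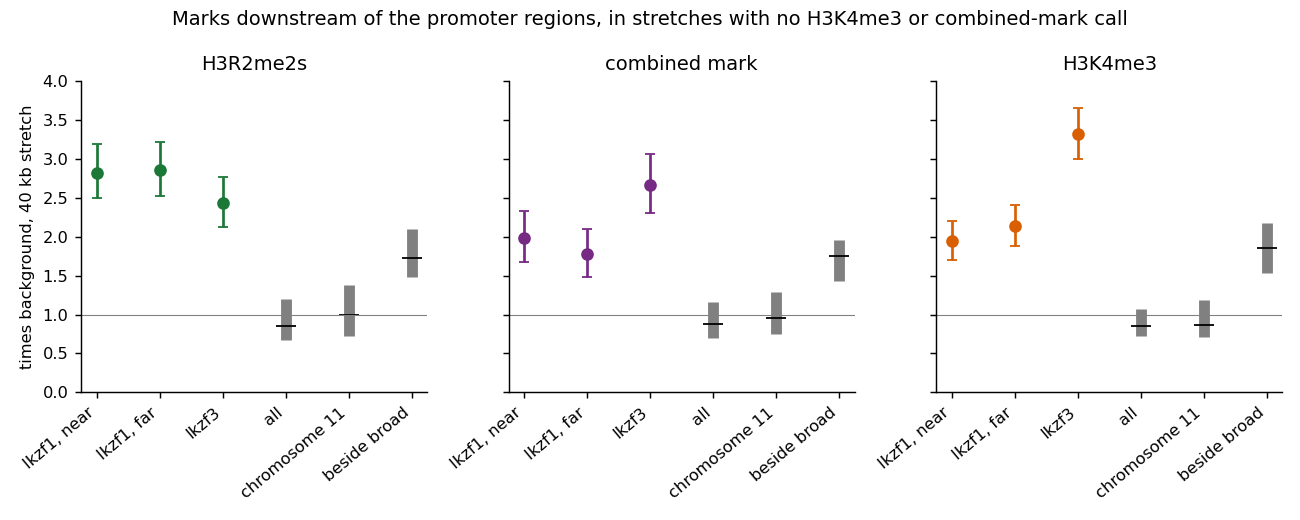
Points are levels of each mark, in multiples of background with 95% counting intervals, in 40 kb stretches downstream of the promoter regions with no bin called for H3K4me3 or the combined mark (Ikzf1 near and far from the promoter, Ikzf3). Grey bars and black ticks are the quartiles and medians of all such stretches, of those on chromosome 11 and of those beside other H3K4me3 regions 10 kb or wider; the H3K4me3 interval of Ikzf3 lies above both of Ikzf1, while for H3R2me2s the intervals of the 2 genes overlap.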

How the data were processed

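ChIP-seq reads of 3 libraries, 1 per antibody, were analysed. Each line of the deposited files is 1 aligned read, 39 bases long; the counts per bin made from them were not normalized by the authors. Per the submitters' processing notes the build was mm9; aligner, mismatch rules and duplicate handling are not given in the sources used here. Per the labels' protocols, libraries had 15 PCR cycles and fragments of 100 to 500 bp.

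Reads were moved 75 bp in the 3-prime direction and counted in 1 kb and 100 bp bins (Python 3.11.15, numpy 2.4.6, scipy 1.17.1). Enriched bins had at least 4 times the mean over 2285014 bins (those holding any read), and a count whose Poisson upper tail at that mean was below 1e-06. Enriched bins up to 1 kb apart were merged. Bins further than 5 kb from enriched ones gave the background mean. Shares and ratios have exact Clopper-Pearson intervals and levels exact Poisson intervals, which cover counting error only, since reads copied by PCR need not be separate molecules. No p-value was computed, because no antibody had a second library. The calling limits and the ratio interval were run on simulated Poisson counts, which checks their arithmetic only. Repeated reads and uneven mappability were not simulated. Regions of the 2 windows were all named; the members, lists and settings were chosen with earlier results of these data known, and the split into core and shoulder bins, the like bins, the 40 kb stretches and the motifs after the files were seen. Stretches of 40 kb needed 36 bins with a read. Gene directions are general knowledge. Ikzf2, Ikzf4 and Ikzf5 were not analysed here, because no mm9 annotation was used. Alternatives were other read shifts, distinct positions, equal depth, moved bin edges, other calling limits, merging and scaling.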

Additional observations from a re-analysis of the deposited data

How the results depend on the processing

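Of 216 values recomputed under 10 settings, 191 stayed within their counting interval (or 1.5 times for counts) and 25 moved further. None could be tested against replicates. No paired analysis was possible because the antibodies had 1 library apiece; for the same reason none could be omitted. With distinct positions only, the highest H3K4me3 bin was at 208 times background at Ikzf1 and 172 at Ikzf3, and the Ikzf1 ratios to H3K4me3 were 0.434 (H3R2me2s) and 1.08 (combined mark). At equal depth the highest H3K4me3 bin of Ikzf3 was at 201 times background. With bin edges moved by 500 bp the Ikzf3 region was 8 kb wide, its highest bins were at 36.5 (H3R2me2s), 117 (combined mark) and 160 (H3K4me3) times background, and the highest H3R2me2s bin of Ikzf1 was at 89.2. At 8 times the mean the Ikzf3 region was 5 kb wide with 2 kb enriched for H3R2me2s, and with only adjacent bins merged it was 7 kb wide. Scaled to background in place of all reads, H3R2me2s over H3K4me3 was 0.244 at Ikzf1 and 0.250 at Ikzf3, the combined mark over H3K4me3 was 0.783 and 0.691, and H3R2me2s over the combined mark was 0.312 and 0.361. Moving reads by 0 or 150 bp moved none of the widths, heights or ratios past these bounds, and subtracting background, run for the 6 ratios only, moved none of them. Of 78 values for counts and levels downstream of the promoters, 6 moved. The causes were not tested.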
